A study of Mus musculus with 119 samples.

Results

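Perineuronal nets are lattices of extracellular matrix that wrap the cell body and proximal dendrites of some neurons, in the forebrain most densely the fast-spiking interneurons that contain parvalbumin. Their backbone is hyaluronan, a long sugar polymer spun out by synthases in the cell membrane. The lecticans, which are chondroitin sulfate proteoglycans (aggrecan, brevican, neurocan and versican), bind it through a globular N-terminal domain, small link proteins of the HAPLN family clamp that contact, and the trimeric glycoprotein tenascin-R cross-links the C-terminal ends of the lecticans. Nets consolidate as juvenile plasticity closes, which places their assembly near adolescence.

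The genes described are the 9 that encode these net proteins, taken as a fixed list of symbols: the link proteins Hapln1, Hapln2, Hapln3 and Hapln4, the lecticans Acan, Bcan, Ncan and Vcan, and tenascin-R, Tnr. All 9 were found among the 55291 gene symbols of the expression tables and all 9 passed the filter on low counts in each comparison. Female and male mice, C57BL/6J per the labels and C57BL/6NCrl per the published methods, received THC, the main psychoactive compound of cannabis, at 10 mg/kg or vehicle by intraperitoneal injection once a day from postnatal day 28 to postnatal day 48. Punches of 5 brain regions were taken at an age of 11 weeks per the labels, which the published methods put slightly later, after behavioural tests that all groups went through. The regions, with the short names of the sample titles, were the VTA (ventral tegmental area of the midbrain), the Amy (amygdala), the NAc (nucleus accumbens), the PFC (prefrontal cortex) and the DMS, a part of the dorsal striatum that the tissue label calls dorsolateral and the published methods call medial. Each of the 20 groups of region, sex and treatment held 6 libraries except the male VTA with vehicle, which held 5, so 119 polyA RNA-seq libraries were compared. The published methods dropped a male VTA sample as an outlier without naming it, and every male VTA library was kept here. All mice were wild type and no other allele or agent is named. The THC and vehicle groups shared the injection schedule, and a punch mixes every cell type under the needle.

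Totals ran from 3091000 to 77042100 expected counts per library, with a median of 22092600, and the shallowest library was FTL_371 of the male VTA with vehicle. Marker sums set the VTA, PFC and DMS apart from the other regions: the summed level of 10 midbrain dopaminergic genes was 1554 to 5188 CPM (counts scaled to a common library total) in the VTA and at most 72.2 CPM elsewhere, and that of 10 projection neuron genes was at least 5303 CPM in the PFC and at most 3494 CPM elsewhere. The sum of 10 medium spiny neuron genes was 7120 to 11483 CPM in the DMS, 3318 to 6918 CPM in the NAc and at most 3499.8 CPM elsewhere, so that the NAc overlapped the Amy. No marker list separated the Amy from every other region. In 2 of 119 libraries the sex-linked genes went against the labelled sex: FTL_344, labelled female Amy with THC, had 0.293 CPM of Xist and 139 CPM summed over 4 Y-linked genes, and FTL_356, labelled male Amy with THC, had 489 CPM of Xist and 0.371 CPM of the Y-linked genes. Another amygdala library, FTL_338 of the female Amy with vehicle, had 2.96% of its CPM in genes with a principal transcript of 10 kb or more, where the other libraries of its group had 4.68% to 4.89%. Some of the Amy results are also given without these libraries. Per the methods each region of each mouse was a library of its own, so the regions share mice. The labels do not name the mouse of a library, and the tests between regions treat the libraries as independent, which may make their p-values too small or too large.

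In the genome the net genes lie in pairs. In the GENCODE M21 annotation of GRCm38 (mm10), each link protein gene has a lectican gene as a coding neighbour with no coding gene between them. Hapln1 (chromosome 13, 89539796 to 89611652, plus strand) and Vcan (13, 89655312 to 89742509, minus) are 43659 bases apart, and Hapln2 (3, 88021750 to 88027583, minus) and Bcan (3, 87987531 to 88000230, minus) 21519 bases. Hapln3 (7, 79115102 to 79131018, minus) and Acan (7, 79053483 to 79115099, plus) end toward each other with 2 bases between the annotated genes. Hapln4 (8, 70083457 to 70090862, plus) and Ncan (8, 70093085 to 70120873, minus) also end toward each other, 2222 bases apart. Tnr (1, 159523769 to 159931729, plus) has no net gene beside it. Other gene models, among them Gm8546, Mir7066 and Gm16318, overlap Hapln1, Ncan, Vcan or Tnr, and because the strand setting of the counting is not given in the sources used here, reads of those models and of the net genes may not be separated.

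Upstream sequence from RefSeq (GRCm38.p6) was matched for 8 of the 9 genes, all but Hapln4. The 250 bases before the RefSeq start are shown for Acan, Ncan and Tnr, genes whose levels are described below as moving with another net gene, and each window ends at the RefSeq start. The end of the Ncan window lies inside the GENCODE gene given above, whose start is further upstream. Capitals mark 4 motifs on either strand. These are the TATA box letters TATAAA, found in 13.0% of 27025 mouse promoters of the same length, the box CCAAT (34.5%), the GC box GGGCGG (32.9%) and the core of SOX factor sites, ACAAAG (16.5%).
Acan, chr7:79052976-79053225, plus strand: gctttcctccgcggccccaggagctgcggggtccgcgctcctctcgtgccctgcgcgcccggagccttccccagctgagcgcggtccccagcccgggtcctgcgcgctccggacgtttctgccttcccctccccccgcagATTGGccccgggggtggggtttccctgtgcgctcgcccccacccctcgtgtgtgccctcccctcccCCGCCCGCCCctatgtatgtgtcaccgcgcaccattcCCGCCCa
Ncan, chr8:70120845-70121094, minus strand: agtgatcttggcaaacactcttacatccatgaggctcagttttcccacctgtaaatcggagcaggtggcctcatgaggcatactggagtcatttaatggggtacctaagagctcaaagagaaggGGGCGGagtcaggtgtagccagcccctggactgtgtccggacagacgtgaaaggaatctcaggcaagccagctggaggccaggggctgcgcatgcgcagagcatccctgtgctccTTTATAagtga
Tnr, chr1:159523519-159523768, plus strand: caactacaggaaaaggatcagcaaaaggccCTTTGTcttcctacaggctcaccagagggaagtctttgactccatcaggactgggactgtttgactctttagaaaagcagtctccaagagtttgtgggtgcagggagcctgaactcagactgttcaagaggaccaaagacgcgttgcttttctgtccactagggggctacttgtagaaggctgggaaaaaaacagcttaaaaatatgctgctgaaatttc
The windows differ in CG dinucleotides: 26 in Acan, more than in 90.8% of promoters, against 6 in Ncan and 2 in Tnr. Ncan carries a TATAAA on the opposite strand at the end of its window, inside the GENCODE gene, and Acan holds 3 GGGCGG matches, of which a pair overlaps. Among the others, Bcan had 16 CG dinucleotides, Vcan 10, Hapln3 8, and Hapln1 and Hapln2, whose windows lie wholly or partly inside annotated transcripts, had 2 each. The highest counts were those of lecticans, although Ncan with 6 lay below Hapln3 with 8. A match is a description of the letters and not evidence of binding.

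Levels by region were the strongest contrast in these genes. CPM were scaled with the trimmed mean of M-values (TMM), and to compare genes they were divided by the exonic length of the gene in kilobases. On that per-length scale Bcan, a brain-specific lectican, ranked first of the 9 in every region, from 39.4 CPM per kb in the PFC to 81.9 in the VTA. Acan, which encodes the lectican most used to mark nets on parvalbumin neurons, ranked last in 4 regions and eighth in the VTA, at 0.237 CPM per kb in the DMS to 0.79 in the VTA. Hapln4 moved most in rank: it had rank 3 in the PFC, Amy and VTA at 27.8, 19.7 and 23.05 CPM per kb and rank 7 in the DMS at 1.78.

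**Figure D1:**
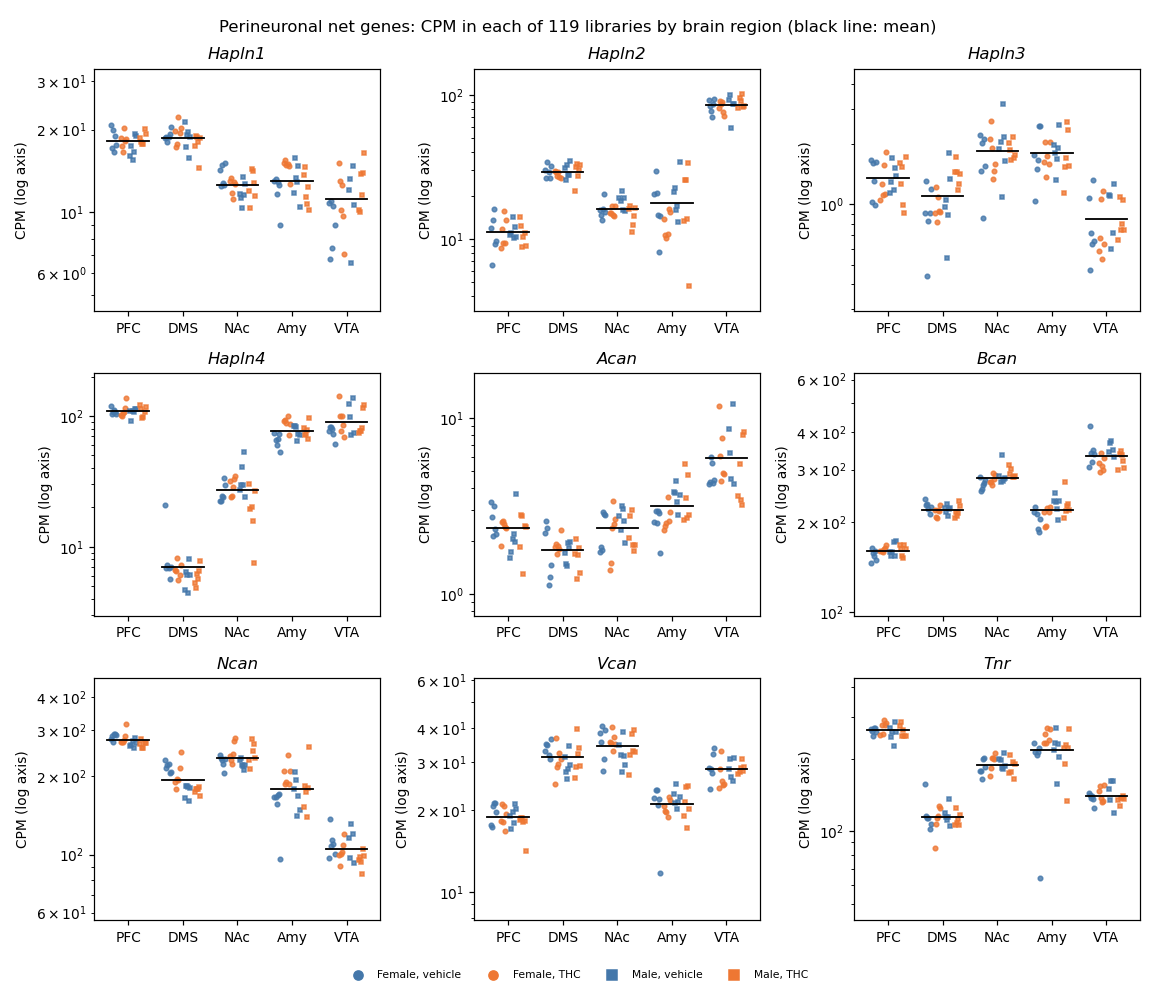
CPM of each of the 9 net genes (panels, log axis) in 119 libraries by region, with sex as symbol shape, treatment as colour and the regional mean as a black line. Hapln4 falls 15.7-fold from PFC to DMS and Hapln2 7.58-fold from VTA to PFC, while Hapln1, Vcan and Bcan differ by 1.68- to 2.08-fold.

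Hapln4, the link protein also called Bral2, which is known from nets of brainstem and cerebellar neurons, showed the widest range. Its mean was 109 ± 9.36 CPM in the PFC (SD, n = 24), 90.4 ± 22.9 in the VTA (n = 23), 77.2 ± 11.9 in the Amy, 27.4 ± 8.73 in the NAc and 6.97 ± 3.16 in the DMS. Every PFC library, from 91.2 to 138 CPM, stood above all NAc and DMS libraries, and the DMS libraries lay between 4.45 and 8.20 CPM but for FTL_285 of the females with vehicle at 21.0. Neighbours in this order overlapped in range. By edgeR's quasi-likelihood test (adjusted p, Benjamini-Hochberg over 18932 genes), the fitted log2 fold change of the DMS against the PFC was -3.99 (SE 0.10, adjusted p = 9.2e-61), and Hapln4 was called (adjusted p under 0.05 with a log2 fold change of 1 or more in size) in 7 of the 10 pairs of regions.

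Hapln2, also called Bral1, is the link protein made by oligodendrocytes and placed at nodes of Ranvier with versican and brevican rather than around cell bodies. It was lowest where Hapln4 was highest, at 11.2 ± 2.39 CPM in the PFC, and reached 85.2 ± 9.83 in the VTA, with 29.4 ± 3.11 in the DMS, 17.8 ± 7.72 in the Amy and 16.2 ± 2.38 in the NAc. VTA libraries lay between 59.1 and 102 CPM, above all libraries of the other regions, of which the highest had 34.7. The difference between Amy and NAc, neighbours in the order, did not pass (log2 fold change 0.12, SE 0.10, adjusted p = 0.26, edgeR). The summed oligodendrocyte markers moved in step: 15799 CPM on average in the VTA, 7319 in the DMS, 4655 in the Amy, 4517 in the NAc and 3177 in the PFC. In bulk punches fewer cells of a type and less RNA per cell cannot be told apart.

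Hapln1, which encodes cartilage link protein 1 and is the link protein whose brain loss leaves attenuated nets in mice, differed 1.68-fold between its highest and lowest region. It averaged 18.7 ± 1.65 CPM in the DMS and 18.1 ± 1.39 in the PFC, which did not pass the test against each other (log2 fold change 0.04, SE 0.05, adjusted p = 0.42), then 13.0 ± 1.83 in the Amy, 12.6 ± 1.299 in the NAc and 11.2 ± 2.73 in the VTA. The adjusted p was passed in 8 of the 10 pairs of regions by edgeR, with the VTA against the DMS at -0.73 (adjusted p = 3.4e-24), and the fold threshold in none. Hapln3, a link protein better known outside the brain, stayed between 0.85 ± 0.26 CPM in the VTA and 1.86 ± 0.48 in the NAc, with as few as 2 counts in the shallowest library, so its values carry the largest counting error of the 9.

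Among the lecticans, Bcan and Ncan had opposite ends: the VTA was highest and the PFC lowest for Bcan, the reverse for Ncan. By mean the NAc, DMS and Amy followed in the same order in both. For Bcan the Amy against the DMS did not pass (log2 fold change -0.01, adjusted p = 0.72, edgeR). Bcan, which astrocytes and glial precursors make in abundance, rose from 160 ± 6.79 CPM in the PFC to 332.97 ± 28.9 in the VTA. Ncan, a lectican of the developing and juvenile matrix, fell from 273.6 ± 13.4 in the PFC to 105 ± 12.9 in the VTA, and its fitted log2 fold change for the VTA against the PFC was -1.38 (edgeR). Acan had 5.90 ± 2.43 CPM in the VTA, 3.14 ± 0.85 in the Amy, 2.37 ± 0.55 in the PFC, 2.36 ± 0.57 in the NAc and 1.77 ± 0.37 in the DMS. Its VTA libraries spread from 3.20 to 11.9 CPM, a coefficient of variation of 41.3% against 21.1% to 26.9% elsewhere. Vcan, whose product is shared between precursor cells, nodes and diffuse matrix, was highest in the NAc at 34.4 ± 4.15 CPM and lowest in the PFC at 18.9 ± 1.72, and passed the fold threshold in no pair. Tnr, which oligodendrocytes and some interneurons make, averaged 263.2 ± 15.3 CPM in the PFC and 115 ± 13.3 in the DMS, a log2 fold change of -1.19 for the DMS against the PFC.

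The counts of called net genes are set beside the share of all genes called in the same pair of regions. Of the 9, 3 were called between DMS and PFC (21.6% of all genes), 1 between NAc and PFC (18.6%), 0 between Amy and PFC (13.8%), where all 9 passed the adjusted p by edgeR and none the fold threshold, 4 between VTA and PFC (26.7%), 1 between NAc and DMS (10.7%), 1 between Amy and DMS (18.6%), 3 between VTA and DMS (29.2%), 1 between Amy and NAc (9.26%), 5 between VTA and NAc (23.8%) and 2 between VTA and Amy (18.5%). Those 5 of the VTA against the NAc were Hapln2, Hapln4 and Acan, which were higher in the VTA, and Hapln3 and Ncan, which were lower. The PFC and DMS come from one table and the other regions from another, so a pair across tables also compares tables.

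The comparison the study was built for, THC against vehicle within each region and sex, showed small differences in the net genes. A call here took an adjusted p under 0.05 with a log2 fold change of 0.4 or more in size. Of 90 tests, 1 was called, Hapln4 in the female Amy, where 1.57% of all genes were called. No net gene was called in the other 9 comparisons, in which the share of all genes called was 0.0127% in the female DMS and 0% in the female PFC, male PFC, male DMS, female NAc, male NAc, male Amy, female VTA and male VTA. At an unadjusted p under 0.05 the counts of net genes were 3 of 9 in the female Amy (21.9% of all genes), 3 in the male NAc (16.7%), 2 in the male VTA (5.92%), 1 in the female NAc (4.61%) and 0 in the other 6. DESeq2 called the same single gene.

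In the female Amy, Hapln4 read 74.7, 66.1, 60.0, 66.2, 72.7 and 53.0 CPM in the 6 vehicle libraries and 92.3, 93.3, 88.3, 99.4, 72.3 and 86.5 CPM in the 6 THC libraries. Of the THC libraries 5 stood above every vehicle library and the remaining one lay within the vehicle range. The fitted log2 fold change was 0.43 (SE 0.09, adjusted p = 0.026, edgeR), a mean of 88.7 ± 9.20 CPM (SD, n = 6) against 65.5 ± 8.07. Without FTL_344 it was 0.44 (adjusted p = 0.048). Leaving out each of the 12 libraries in turn gave 0.37 to 0.47, with adjusted p from 0.013 to 0.076, and the call was lost in 5 of the 12: without FTL_335, FTL_339, FTL_340 or FTL_342 the adjusted p was 0.068 to 0.076, and without FTL_338 the log2 fold change was 0.37 with an adjusted p of 0.014.

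**Figure D2:**
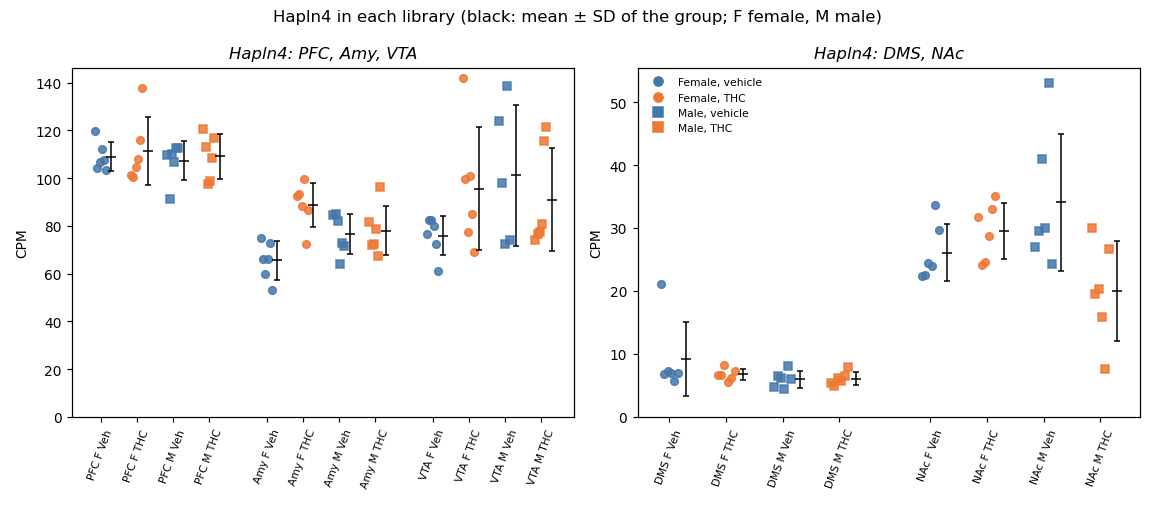
Hapln4 in CPM (linear axis from 0) in each library of the 20 groups, PFC, Amy and VTA at the left and DMS and NAc at the right, with the mean ± SD of each group in black. In the female Amy 5 of 6 THC libraries lie above all vehicle libraries, and in the female DMS one vehicle library at 21.0 CPM stands apart.

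Ncan, the coding neighbour of Hapln4, read 166, 166, 156, 169, 170 and 96.0 CPM with vehicle and 210, 186, 190, 240, 186 and 208 CPM with THC in the female Amy. The groups did not overlap, in a comparison where 21.9% of all genes had an unadjusted p under 0.05 by edgeR. The log2 fold change of Ncan was 0.39 (SE 0.12, adjusted p = 0.094), short of both thresholds. Tnr read 233, 213, 208, 213, 222 and 63.9 CPM with vehicle and 232, 253, 232, 267.8, 241 and 267.4 CPM with THC. Its log2 fold change of 0.37 (adjusted p = 0.36, edgeR) rested in part on FTL_338, which held the 63.9. Without that library the values narrowed: 0.29 (SE 0.06, adjusted p = 0.015) for Ncan and 0.18 (SE 0.05, adjusted p = 0.041) for Tnr, so both passed the adjusted p and neither the fold threshold. Hapln1 was 0.27 (adjusted p = 0.11), Hapln2 -0.51 (SE 0.24, adjusted p = 0.24), and Acan, Bcan, Vcan and Hapln3 lay between -0.09 and 0.06. Without FTL_338 Hapln1 was 0.20, Vcan -0.14 and Acan -0.04, and over all single libraries left out Hapln2 ranged from -0.67 to -0.32. The median over the 9 genes was 0.06, that over all genes tested -0.01.

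Other cell markers moved with treatment in these same libraries. The summed level of the 10 cortical and basolateral amygdala projection neuron genes was 1692 to 2599 CPM in the female Amy with vehicle and 2675 to 3482 CPM with THC, without overlap, and within the Amy it correlated with Hapln4 (r = 0.78) and Ncan (r = 0.69) after removal of group means. The 12 hypothalamic and medial amygdala genes summed to 112 to 208 CPM with vehicle and 85.1 to 136 with THC, and the 10 medium spiny neuron genes to 774 to 1485 and 1229 to 1910 CPM. The 10 parvalbumin interneuron markers, 1466 to 2080 CPM with vehicle and 1781 to 2045 CPM with THC, and the 10 astrocyte markers, 2488 to 3549 and 3294 to 3636 CPM, overlapped, although Lhx6, a transcription factor of the former list, was called lower (log2 fold change -0.48, adjusted p = 0.026). By edgeR, which called 1.57% of all genes here and gave 21.9% an unadjusted p under 0.05, 5 of the 10 projection neuron genes were called, all higher with THC, and 0 of the 10 oligodendrocyte markers, all of which had a fold change below 0 (median -0.44) and 2 an unadjusted p under 0.05. That p was also reached by 8 of the 10 medium spiny neuron genes, all 10 of which were above 0, by 6 of 10 tested hypothalamic genes, all below 0, and by 3 of the 10 astrocyte genes, 8 of which were below 0 (median -0.06), with none of these called. The 6 choroid plexus markers ranged from 42.7 to 1185 CPM with vehicle and from 34.2 to 3662 CPM with THC. The part of these markers in the Hapln4 difference was not tested. FTL_338 was the lowest vehicle library for the projection neuron sum at 1692 CPM, and FTL_356, in the male Amy with THC, held the highest of the male groups at 3494 CPM together with the highest male Hapln4 (96.2 CPM) and Ncan (259 CPM).

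In the male Amy, Hapln4 read 84.5, 84.7, 81.9, 64.0, 72.8 and 71.7 CPM with vehicle and 81.4, 72.2, 72.4, 78.8, 67.2 and 96.2 with THC, where 1 THC library, FTL_356, stood above all vehicle libraries and the others lay within the vehicle range. The log2 fold change was 0.03, and -0.04 without FTL_356. The sex by treatment term, which asks whether the effect of THC differed between males and females, was -0.40 for Hapln4 (SE 0.13, adjusted p = 0.25, edgeR) and was not called. It was -0.48 (adjusted p = 0.20) without FTL_344 and FTL_356 and -0.34 (adjusted p = 0.38) without FTL_338. No net gene was called for this term in any region, where 0.0059% of all genes were called in the Amy and 0% in the PFC, DMS, NAc and VTA. At an unadjusted p under 0.05 there were 2 net genes in the Amy (Hapln4 and Hapln1, with 15.8% of all genes), 1 in the NAc (Hapln4, 11.0%), 1 in the VTA (Acan, 6.16%) and 0 in the PFC and DMS, and DESeq2 called none.

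The NAc held the largest fitted change of any net gene under THC, which was not called. Hapln4 in the male NAc read 26.96, 29.5, 40.9, 29.9, 53.0 and 24.2 CPM with vehicle and 30.1, 19.5, 20.2, 15.8, 7.54 and 26.6 CPM with THC, with 4 of the THC libraries below all vehicle libraries. The log2 fold change was -0.77 (SE 0.31, adjusted p = 0.26, edgeR) and stayed between -0.93 and -0.59 when single libraries were left out. Hapln2 was lower by the same sign, -0.32 (SE 0.10, adjusted p = 0.21), and Ncan higher, 0.13 (SE 0.06, adjusted p = 0.26). Medium spiny neuron markers summed to 3318 to 5042 CPM with vehicle and 4647 to 6918 with THC, and the hypothalamic list to 44.9 to 88.02 and 30.5 to 48.8 CPM. By edgeR no gene of these lists was called, but all 10 medium spiny neuron genes were above 0 and all 6 tested hypothalamic genes below 0, with 10 and 4 of them at an unadjusted p under 0.05, a level that 16.7% of all genes reached. The projection neuron genes summed to 1213 to 1686 CPM with vehicle and 1384 to 1695 with THC. Of these, 5 were tested and all 5 had an unadjusted p under 0.05, 2 higher and 3 lower (median log2 fold change -1.36), as did 7 of 10 for sex by treatment in the NAc (11.0% of all genes). All 8 oligodendrocyte precursor genes were below 0 (median -0.17), 2 of them at an unadjusted p under 0.05. The 10 mature oligodendrocyte genes were all below 0 too (median -0.19), none at that p, and 8 of 10 astrocyte genes were (median -0.10), 3 at that p. The part of these markers in the Hapln4 and Hapln2 values was not tested. The 10 parvalbumin interneuron genes summed to 2413 to 3092 CPM with vehicle and 2293 to 2740 with THC, with 8 below 0 (median -0.25) and 1 at an unadjusted p under 0.05. Pvalb itself, looked at after seeing the data, was 1.49 to 14.7 CPM with vehicle and 0.531 to 6.51 with THC, highest in FTL_325 and FTL_323, the vehicle libraries highest in Hapln4. Hapln4 in females of the same region read 22.3 to 33.6 CPM with vehicle and 24.1 to 35.0 with THC, a log2 fold change of 0.17. The net gene with an unadjusted p under 0.05 in the female NAc was Hapln1 (-0.15, SE 0.07, adjusted p = 0.99, edgeR).

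In the remaining regions no net gene was called. In the PFC the 18 fitted log2 fold changes lay between -0.14 (Acan, females) and 0.10 (Hapln1, males), and Hapln4 was 0.03 in both sexes. In the female DMS the Hapln4 value of -0.45 was that of 1 library: without FTL_285 it was 0.01. In the VTA, Acan read 4.22, 4.29, 5.99, 5.55, 4.24 and 4.40 CPM in females with vehicle and 11.7, 6.04, 4.36, 7.70, 4.85 and 4.77 with THC (log2 fold change 0.45, SE 0.22, adjusted p = 0.57). In males the sign was opposite, with 8.69, 6.28, 4.48, 11.9 and 4.22 CPM with vehicle and 3.58, 5.48, 3.40, 3.20, 7.94 and 8.30 with THC (-0.44, SE 0.34, adjusted p = 0.85). Without FTL_363 the female value was 0.20 and without FTL_372 the male value was -0.17. The interaction term of Acan in the VTA was -0.89 (SE 0.42, adjusted p = 0.78) and not called. For Acan the groups overlapped in both sexes. Hapln4 in the female VTA was 61.1 to 82.6 CPM with vehicle and 69.0 to 142 with THC, 4 of 6 THC libraries above all vehicle libraries (log2 fold change 0.33, SE 0.15, adjusted p = 0.56), and 0.19 to 0.41 with single libraries left out. The VTA genes with an unadjusted p under 0.05 were Bcan and Ncan in males. Bcan was 329.4 to 374.3 CPM with vehicle and 298.4 to 347.3 with THC (-0.13, SE 0.06, adjusted p = 0.82, edgeR), and Ncan 93.3 to 131 and 84.0 to 106 CPM (-0.21, SE 0.09, adjusted p = 0.82). The female values were -0.13 for Bcan and -0.10 for Ncan, neither at that p. Of 10 astrocyte genes in the VTA, 2 were above 0 in males (median -0.06) and 3 in females (median -0.16). At an unadjusted p under 0.05 (edgeR) there were 3 of them in males (5.92% of all genes) and 4 in females (9.02%). All 8 microglia genes were below 0 in females, 7 at that p. Of the parvalbumin interneuron genes, 7 of 10 were above 0 in females and 1 of 9 tested in males. The part of these markers was not tested.

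**Figure D3:**
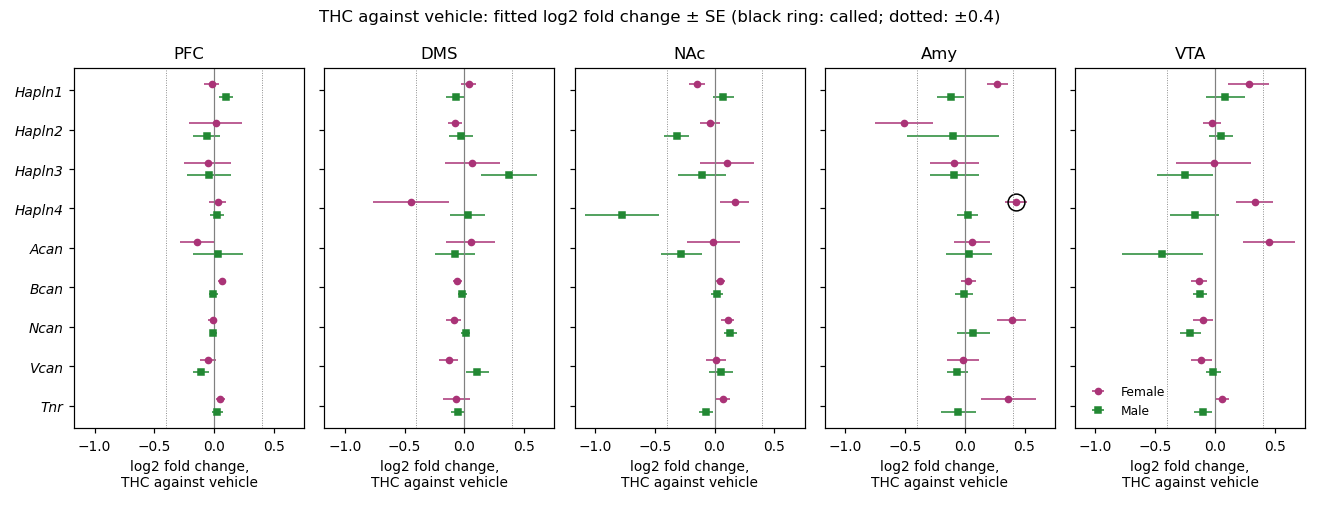
Fitted log2 fold change of THC against vehicle ± SE (horizontal axis) for the 9 net genes in each region (panels), females as circles and males as squares. The black ring marks the single call, Hapln4 in the female Amy at 0.43, and the dotted lines stand at -0.4 and 0.4.

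Sex differences, averaged over treatment, reached the fold threshold with an adjusted p under 0.05 for no net gene, where the shares of all genes called were 0.237% (PFC), 2.64% (DMS), 0.25% (NAc), 0.0118% (Amy) and 0.113% (VTA). DESeq2 called none either. At an unadjusted p under 0.05 there were 1, 3, 1, 2 and 0 net genes in these regions, beside 16.3%, 27.8%, 16.4%, 6.06% and 7.19% of all genes. Without FTL_344 and FTL_356 the share of all genes called in the Amy was 0.0822%, with no net gene called. Ncan in the DMS passed the adjusted p alone. It was lower in males, with a log2 difference of -0.24 (male against female, adjusted p = 4.8e-04, edgeR): 161 to 183 CPM in males and 178 to 247 in females over both treatments, with a small overlap. In the PFC the same gene was -0.09 (adjusted p = 0.054). Acan in the Amy was 0.46 higher in males (SE 0.12, adjusted p = 0.40), and 0.50 (SE 0.13, adjusted p = 0.23) without FTL_344 and FTL_356.

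The genes that build, hold and cut the net were counted from lists of their own. Of 18 genes for hyaluronan and chondroitin sulfate synthesis, 17 were tested in the female Amy and 1 was called, where the share over all genes was 1.57%. It was Chst15, a sulfotransferase that adds the second sulfate of chondroitin sulfate E: 26.3 to 38.4 CPM with vehicle and 35.5 to 49.0 with THC, a log2 fold change of 0.42 (SE 0.10, adjusted p = 0.045, edgeR). The call held in 3 of the 12 fits without 1 library each, over which it ranged from 0.37 to 0.46 with adjusted p from 0.031 to 0.13, and was lost both without FTL_338 (0.37, adjusted p = 0.043) and without FTL_344 (0.46, adjusted p = 0.052). Of 13 receptors and other net components, 12 were tested and 1 was called (again beside 1.57% of all genes), Nptx2, a pentraxin that is secreted by excitatory neurons onto parvalbumin cells and held in nets: 14.1 to 34.9 CPM with vehicle and 34.6 to 54.1 with THC, a log2 fold change of 1.05 (SE 0.17, adjusted p = 0.013), which was called in all 12 such fits (0.96 to 1.205). Of the 12, 11 had a fold change above 0, with a median of 0.15 against -0.01 over all genes tested. In the same libraries all 10 projection neuron genes were above 0 and all 10 oligodendrocyte genes below 0. The part of cell markers in the Chst15, Nptx2 and receptor values was not tested. Of 18 matrix proteases and their inhibitors, 16 were tested and none was called by edgeR, with 1 at an unadjusted p under 0.05 (21.9% of all genes) and a median of -0.02. In the other 9 comparisons of THC with vehicle edgeR called no gene of the 3 lists, where it called 0% to 0.0127% of all genes. At an unadjusted p under 0.05 there were 0 to 4 genes of a list, beside 1.84% to 16.7% of all genes. The highest counts were 4 of 16 synthesis genes in the male NAc (16.7% of all genes) and 4 of 16 proteases and inhibitors in the female VTA (9.02%).

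Within a region, libraries of the same sex and treatment still differ, and the 36 pairs of net genes were correlated over those differences (log2 CPM minus group means, 24 libraries or 23 in the VTA, two-sided permutation within groups, adjusted over 180 pairs). The pairs passing an adjusted p of 0.05 numbered 2 in the VTA, 2 in the Amy, 1 in the NAc and 0 in the PFC and DMS. The strongest was Hapln4 with Acan in the VTA, r = 0.90 and rho = 0.85 (n = 23, permutation p = 1e-05, the smallest that 100000 permutations can give, adjusted p = 0.0018, both coefficients adjusted p at most 0.0036). It was 0.85 without the 2 libraries farthest from the median of Hapln4 and between 0.88 and 0.93 when any single library was left out. FTL_363 (142 and 11.7 CPM) and FTL_372 (138 and 11.9 CPM) were high in both genes, and they came from different sexes and treatments.

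Hapln1 joined Hapln4 in the VTA with r = 0.71 and rho = 0.67 (permutation adjusted p = 0.031 and 0.039), and 0.75 without the 2 farthest libraries. Without FTL_371, the shallowest library, it was 0.66 (adjusted p = 0.057). Hapln1 with Acan was 0.61 (adjusted p = 0.10). These 3 genes also followed the summed parvalbumin interneuron markers in the VTA, with r of 0.72 for Acan, 0.79 for Hapln1 and 0.72 for Hapln4, with 0.59 for Hapln2, whereas Bcan, Ncan and Tnr had -0.39, -0.36 and -0.24 (n = 23, given as descriptions). That list includes Kcnc1, Gad1 and Gad2, which other neurons of the VTA also express, and 1 of its 10 genes, Lhx6, was under 1 CPM there. Pvalb alone gave 0.65, 0.71 and 0.64.

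**Figure D4:**
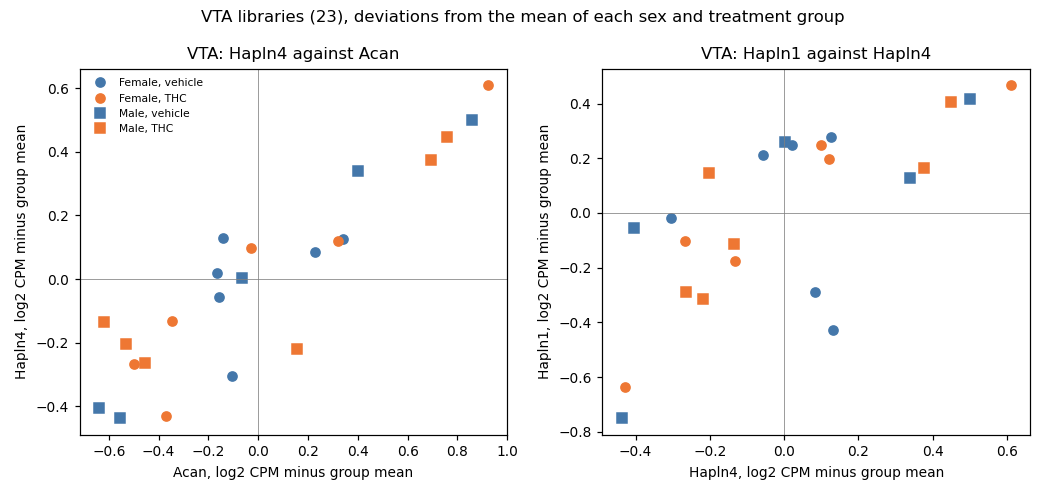
Deviations in log2 CPM from the mean of each sex and treatment group in the 23 VTA libraries, Hapln4 against Acan at the left (r = 0.90) and Hapln1 against Hapln4 at the right (r = 0.71). Libraries of all 4 groups lie along the left-hand trend.

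In the Amy the passing pairs were Ncan with Tnr (r = 0.83, rho = 0.71, permutation adjusted p = 0.011 and 0.026) and Hapln4 with Ncan (r = 0.70, rho = 0.69, adjusted p = 0.034 and 0.026). Vcan with Tnr had a larger r of 0.85 that did not pass (rho = 0.51, permutation adjusted p = 0.10 and 0.21) and was 0.21 without the 2 farthest libraries. By rho alone 4 pairs passed in the Amy, with Hapln2 and Bcan (0.65) and Hapln4 and Tnr (0.57) as the others, and 4 in the VTA, with Ncan and Vcan (-0.69) and Hapln2 and Ncan (-0.66). Ncan with Tnr and Hapln4 with Ncan kept r of 0.67 and 0.58 without the 2 libraries farthest from the median of the first gene. Without FTL_338 alone they were 0.73 and 0.62, and neither passed (adjusted p = 0.12 for both). Hapln4 with Ncan was 0.62 (adjusted p = 0.091) without FTL_344 and FTL_356. In the NAc, Hapln1 and Hapln2 ran against each other, r = -0.75 and rho = -0.72 (permutation adjusted p = 0.011 and 0.026), -0.68 without the 2 farthest libraries and between -0.82 and -0.71 with any single library left out. There Hapln1 had r = -0.79 and Hapln2 r = 0.80 with the summed oligodendrocyte precursor markers.

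The genes most like each net gene were taken over all 119 libraries after removal of the 20 group means, among 14870 genes with a mean of at least 1 CPM, and genes among the 3 with the largest r are given. For Hapln2 they included Tmem63a (r = 0.93) and Mag (r = 0.92), which encodes a myelin protein, and the summed oligodendrocyte markers had r = 0.93 with it. For Acan they included Kcnc1 and Peli3 (0.67 and 0.61), and for Hapln4 they were Tmem25, Rab11fip5 and Kcnc4 (0.78, 0.75 and 0.74). Kcnc1 and Kcnc4 encode Kv3 potassium channels, which allow fast spiking. For Hapln1 they included Oip5os1 and Gad1 (0.70 and 0.66), the last a GABA-synthesising enzyme.

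For Bcan they included Axl and Aldh1l1 (0.68 and 0.64), the latter an astrocyte gene. For Ncan they were Sipa1l1, Adgrb2 and Pi4ka (0.81 each), for Vcan Lama2, Kat6a and Cpd (0.67, 0.65 and 0.65), and for Hapln3 Prdx4, Hmgb2 and Etfbkmt (0.44, 0.43 and 0.42). For Tnr they were Ank2, Huwe1 and Macf1 (0.94, 0.93 and 0.92), all with very long transcripts. Tnr followed the summed level of the genes with transcripts of 10 kb or more with r = 0.88, Ncan with r = 0.68 and Vcan with r = 0.45, against -0.01 for Hapln2 and -0.03 for Bcan. These values share the library, its depth and its RNA, and in particular FTL_338.

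**Figure D5:**
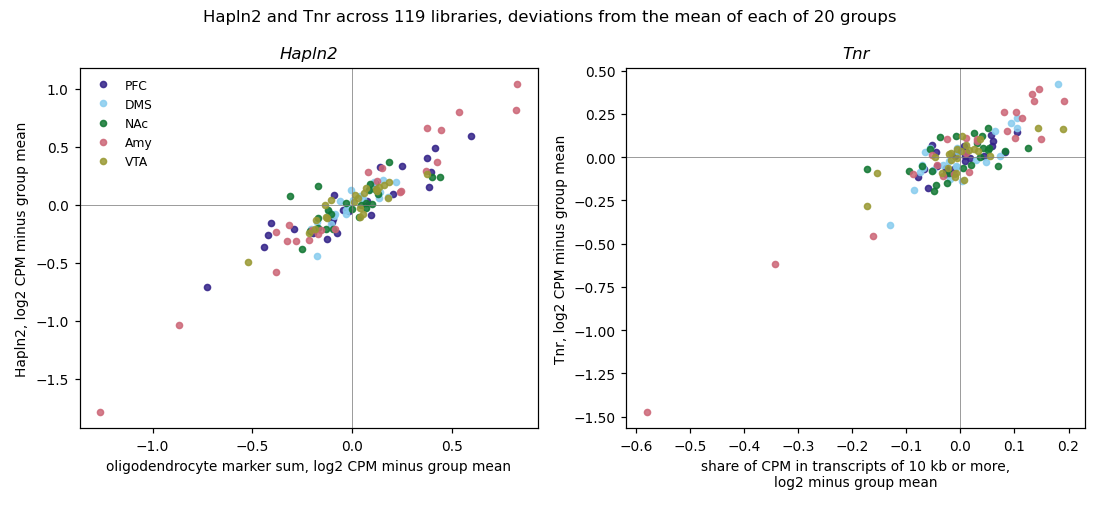
Deviations from the mean of each of 20 groups in 119 libraries coloured by region: Hapln2 against the summed oligodendrocyte markers at the left (log2 CPM, r = 0.93) and Tnr against the share of CPM in transcripts of 10 kb or more at the right (log2). The lowest Tnr point is FTL_338 at 63.9 CPM.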

How the data were processed

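RNA was measured in 119 brain punch libraries (polyA, directional kit, paired reads). Per the labels, the authors trimmed reads with cutadapt 2.9, aligned them with STAR 2.7.3a to mm10 and estimated expected counts per gene symbol with RSEM 1.3.1. The deposited expected counts, in 2 tables of 55291 symbols, were rounded to whole numbers here. Symbols were matched to GENCODE M21 (96.4% matched) for position and exonic length. Depth ran from 3091000 to 77042100 expected counts per library, and low-level genes such as Hapln3 and Acan carry the largest counting error.

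Groups were taken from the labels. edgeR 4.0.16 (R 4.3.3) was fitted across all genes that passed filterByExpr, with TMM factors and robust quasi-likelihood F-tests, separately for treatment within each of the 10 groups of 1 sex and region, sex by treatment and sex in each region, and between regions. P-values were adjusted by Benjamini-Hochberg over all genes tested. A call took an adjusted p under 0.05 with a log2 fold change of 0.4 (within a region) or 1 (between regions) or more in size. DESeq2 1.42.0, its size factors, no filter, other sample sets and leaving out single libraries were the alternatives. Correlations used log2 CPM with a prior count of 2 minus group means and 100000 permutations within groups (numpy 2.4.6). The tests were tested on simulated data with 200 changed genes: for THC in the female Amy edgeR recovered 100% of those changed by 1 or 1.5 on the log2 scale, with 11 other calls, and for the interaction in the Amy 84% at 1 and 99% at 1.5. Smaller changes were not simulated.

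The 9 genes, the other lists and the rule for named genes (the 9 members, called genes of the lists of net-related genes and the 3 genes most like each member) were chosen with earlier results of these data known. The use of Pvalb alone, and of interactions or correlations without FTL_338, FTL_285 or FTL_371, and of Chst15 and Nptx2 without single libraries, was chosen after seeing the data. Some of the genes most like a member are not reported here.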

Additional observations from a re-analysis of the deposited data

Results flagged for a closer look

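In each of 180 sets of 1 gene in 1 group of 5 or 6 libraries, the highest or lowest library was compared with the rest by Dixon's criterion. It stood apart in 20 sets (11.1%), where chance gives about 1 in 20, and these lay in 15 libraries. FTL_338 of the female Amy with vehicle held 5 of them, all low: Hapln1 at 9.02 CPM (others 11.7 to 13.2), Acan at 1.71 (2.51 to 2.96), Ncan at 96.0 (156 to 170), Vcan at 11.8 (20.8 to 23.8) and Tnr at 63.9 (208 to 233). FTL_285 of the female DMS with vehicle was high in Hapln4 at 21.0 CPM (5.66 to 7.30) and in Tnr at 157 (103 to 116).

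The libraries whose sex-linked genes went against their labels each held 1. FTL_344 had 12.7 CPM of Hapln1 in the female Amy with THC (14.7 to 15.6) and FTL_356 had 259 CPM of Ncan in the male Amy with THC (140 to 182).

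Among the link proteins, Hapln1 was 14.5 CPM in 1 male DMS library with THC (17.4 to 18.9), Hapln2 was 20.5 in 1 female NAc library with vehicle (13.6 to 16.05) and Hapln4 was 91.2 in 1 male PFC library with vehicle (107 to 113). Acan was 1.88 CPM in 1 female PFC library with THC (2.35 to 2.60) and 3.67 in 1 male PFC library with vehicle (1.59 to 2.18). Bcan was 334.7 CPM in 1 male NAc library with vehicle (273.04 to 285.2), 272.2 in 1 male Amy library with THC (206 to 230) and 420.3 in 1 female VTA library with vehicle (305.5 to 347.5). Ncan was 315.999 CPM in 1 female PFC library with THC (269.95 to 283.96), Vcan 14.2 in 1 male PFC library with THC (18.1 to 18.7) and Tnr 127 in 1 male VTA library with THC (135 to 140.1).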

How the results depend on the processing

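The counts of called net genes between regions, for sex and for sex by treatment were the same under every alternative run. For THC against vehicle the count moved only when single libraries were left out in the female Amy, where it ranged from 0 to 1 against 1. DESeq2, its size factors, no filter and all 4 groups in 1 fit kept that count at 1. The correlations moved most: in the Amy the passing pairs numbered 2, against 1 with total counts in place of TMM, 7 without subtraction of group means and 0 without FTL_338, a library left out after seeing the data. Without FTL_344 and FTL_356 there were also 2, but Acan with Ncan (r = 0.73, adjusted p = 0.028) passed in place of Hapln4 with Ncan. In the NAc there were 2 without subtraction of group means against 1, and in the VTA 1 without FTL_371, also chosen after seeing the data, against 2. With total counts Hapln1 with Hapln4 in the VTA no longer passed (r = 0.67, adjusted p = 0.055) and Hapln2 with Ncan did (r = -0.71), and without subtraction of group means 3 VTA pairs passed. The causes were not tested. Depth limits Hapln3 and Acan most. No paired analysis was possible because the library numbers are not shared between groups and, although regions share mice, the labels do not name the mouse of each library.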

Other observations

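Of the male vehicle libraries, 1 in each region had a lower summed level of the 4 Y-linked genes than the rest of its group. The 5 values ran from 67.5 CPM (FTL_323) to 96.6 CPM (FTL_299), with 75.0 CPM in FTL_275, 68.8 CPM in FTL_346 and 71.2 CPM in FTL_370, and the other male vehicle libraries had 133 to 181 CPM.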
